A study of Saccharomyces cerevisiae with 6 samples.

Results

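Chromosome ends of budding yeast carry few genes, and those they carry are mostly members of families that recur from end to end. Proteins bound at the telomere repeats recruit the Sir silencing complex, and genes close to an end are known for low or switchable transcription. Subtelomeric families of Saccharomyces cerevisiae are also known for expansion, loss and exchange between ends, and they serve growth on unusual substrates, the cell surface and stress. Described here are the 198 gene models, of 5625 in the deposited table, that lie within 15 kb of the outermost gene model at each of the 32 ends of the 16 nuclear chromosomes. Another 12 models in that window were left out because their names begin with 1 of 12 prefixes for hexose, iron, phosphate, zinc or thiamine genes. An end held 3 to 10 members. Distances are counted from the outermost gene model and not from the physical end, and the first model of a chromosome began 16 to 6132 bases into its sequence.

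Polyadenylated RNA was sequenced from 3 strains grown in aerobic bioreactors, with 2 cultures each that the labels describe as biological duplicates. IMX605 (libraries R12 and R7) carries its glycolytic genes at a single locus on chromosome V, IMX606 (R13 and R8) at a single locus on chromosome IX, and IMX372 (DSE001 and DSE002) has them at their native loci. IMX372 is labelled MG, and the study asked how transcription differs between the relocated and the native arrangement. Per the labels the libraries of IMX372 had been deposited before, so in either comparison against this strain the set of libraries and the strain cannot be told apart. Reads on genes numbered 20124583 and 19490736 in IMX605, 18754741 and 21370278 in IMX606, and 70510681 and 19100242 in IMX372. A floor of 3 reads on a 1 kb gene stood at 0.0425 to 0.160 FPKM (fragments per kilobase of gene, scaled to library size, thus a level per length), for counting error only. RNA came from whole cultures, so fewer cells expressing a gene and less RNA per cell cannot be told apart. Positions follow the table's own CEN.PK113-7D sequences. The assembly's name was not given in the sources used here.

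Identity of a model is a concern near the ends. Of the 198 members, 105 shared their name with another row, 93 had a near-identical copy in the reference genome (at least 95% identity over 200 bases) and 17 overlapped another model. In all 128 had at least 1 of these marks and are called uncertain, because reads could be split between copies, and 70 were single. Copies could be sought only for members found in the reference, which 8 of the 70 single ones were not, AAD16, YHR212C and YJL215C among them. Where a name occurs more than once the chromosome end is given with it. In 9 members a neighbour on the opposite strand within 500 bases stood at 10 times the level or more, and the strand setting of the counting was not given in the sources used here. A model with a mean under 1 FPKM over the 6 libraries was not tested, which left out 65 members, 60 of them uncertain.

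Members were expressed at low levels. The median member stood at 4.04 FPKM in IMX605 and 3.51 FPKM in IMX606, against 2.68 FPKM in IMX372, and the median of the 5373 other nuclear genes stood at 47.9, 47.0 and 48.4 FPKM in these strains. Single members had medians of 19.1 FPKM in IMX605 and 18.1 FPKM in IMX606, against 16.6 FPKM in IMX372, while uncertain members had 1.40 FPKM in IMX605 and 1.46 FPKM in IMX606, against 0.21 FPKM in IMX372. The share of models under the filter was 32.8% among members and 0.968% among other nuclear genes. No read fell on 11 members in any library.

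Levels were lowest next to the ends. Within 5000 bases of the outermost model the median of 82 members was 0.47 FPKM in IMX605 and 0.79 FPKM in IMX606, against 0.10 FPKM in IMX372. Between 5000 and 10000 bases the median of 58 members was 8.34 FPKM in IMX605 and 8.20 FPKM in IMX606, against 6.54 FPKM in IMX372. Between 10000 and 15000 bases the median of 58 members was 8.51 FPKM in IMX605 and 8.64 FPKM in IMX606, against 4.84 FPKM in IMX372. From 15000 to 30000 bases 177 genes had a median of 30.6 FPKM in IMX605 and 28.8 FPKM in IMX606, against 32.9 FPKM in IMX372. Single members went the other way. The 10 within 5000 bases had medians of 43.8 FPKM in IMX605 and 46.8 FPKM in IMX606, against 40.1 FPKM in IMX372, and the 31 between 10000 and 15000 bases had 15.6 FPKM in IMX605 and 15.05 FPKM in IMX606, against 15.4 FPKM in IMX372.

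**Figure D1:**
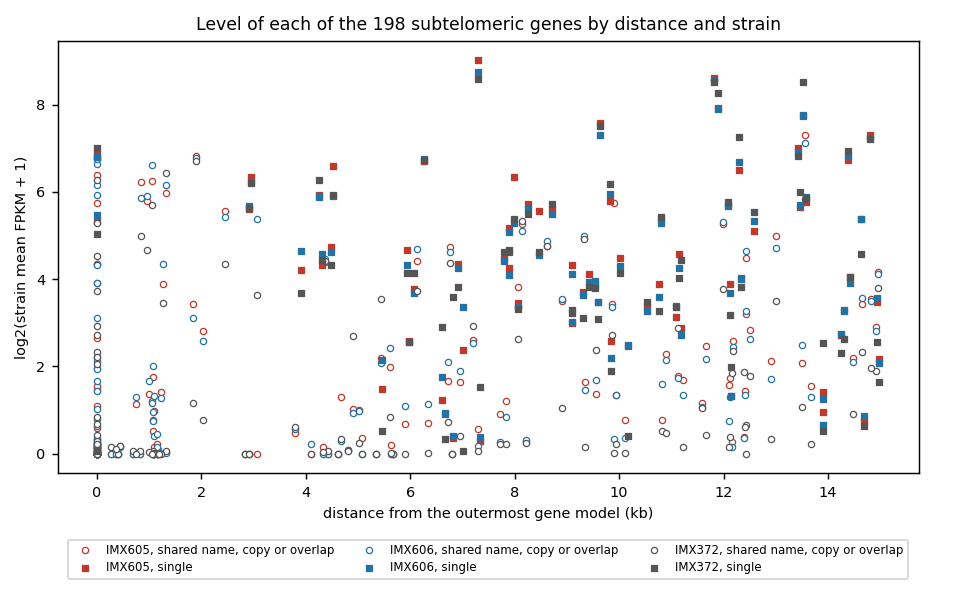
Strain mean level of each of the 198 members, as log2(FPKM + 1), against distance from the outermost gene model in kb. Open circles are members with a shared name, copy or overlap and filled squares are single members, in IMX605 (red), IMX606 (blue) and IMX372 (grey). The models at or near 0 were mostly open circles, with 60 of the 65 members under the filter among them.

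The most abundant members were mostly single housekeeping genes. COX14, an assembly factor of cytochrome c oxidase (XIII left), had 450 and 582 FPKM in IMX605, 413 and 441 in IMX606, and 426 and 343 in IMX372. ERG13, the HMG-CoA synthase of sterol synthesis, averaged 364 to 393 FPKM over the strains at the same end, and TUB3, an alpha-tubulin, 148 to 156 FPKM. PGA3, a putative reductase also at XIII left, averaged 211 FPKM in IMX605 and 217 FPKM in IMX606, against 365 FPKM in IMX372. The proteasome subunit RPN12 and the coatomer subunit RET2 at VI right, YBL107C at II left, MHT1 (S-methylmethionine-homocysteine methyltransferase) at XII left, COS6 (VII right) and EGT2, which acts in separation of daughter cells (XIV left), made up the rest of the 10 highest, with means of 115 to 262 FPKM over the libraries.

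The clearest contrast between the single-locus strains lay at the left end of chromosome XV and the right end of chromosome XIV. Of the 133 members tested, limma called 4 higher and 1 lower in IMX605 than in IMX606, and these 5 are among the 11 genes called in the whole table (0.202% of 5459 tested, 0.0733% higher and 0.128% lower). Calls throughout are at a Benjamini-Hochberg adjusted p under 0.05 on log2(FPKM + 1), a scale that understates the change of low genes.

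PAU20 (XV left, 11453 to 11935, minus strand), a seripauperin of the cell wall family, had 56.4 and 49.3 FPKM in IMX605, 0.331 and 0.194 in IMX606, and 0.0294 and 0 in IMX372. In reads this was 548 and 464 in IMX605, 3 and 2 in IMX606, and 1 and 0 in IMX372. The model was thus near the counting floor in every library but those of IMX605. The ratio of IMX605 to IMX606 reads, scaled to library totals, was 205 with an exact 95% counting interval of 87.6 to 633, and limma gave a log2 change of 5.41 (SE 0.19, adjusted p = 1.06e-08).

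PAU1 (XIV right, 757929 to 758291, plus strand), of the same family, did the opposite. It had 0 and 0 FPKM in IMX605, 42.2 and 39.3 in IMX606, and 13.4 and 9.52 in IMX372. No read fell on it in IMX605, against 287 and 305 reads in IMX606 and 342 and 66 in IMX372. With the floor of 3 reads per library it was at least 97.6-fold lower in IMX605 than in IMX606 and at least 27.4-fold lower than in IMX372, and limma's change between the single-locus strains was -5.38 (SE 0.18, adjusted p = 7.36e-09). The gene was also higher in IMX606 than in IMX372, by 1.76 (SE 0.18, adjusted p = 2.65e-05 by limma). Both PAU models have near-identical copies and are uncertain.

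The models between PAU20 and the XV left end were higher in IMX605 as well, by smaller steps. YOL163W (9540 to 10010), which the reference annotation describes as a remnant of a transporter gene, had 77.3 and 82.7 FPKM in IMX605, 36.9 and 38.7 in IMX606, and 41.0 and 40.0 in IMX372. YOL162W (10023 to 10670), a remnant of the same kind, had 46.5 and 45.6 FPKM in IMX605, 20.2 and 25.0 in IMX606, and 22.9 and 24.4 in IMX372. For both, each IMX605 library lay above each library of the other strains, and the libraries of IMX606 and IMX372 lay close together. The log2 changes of IMX605 against IMX606 were 1.06 for YOL163W (SE 0.11) and 1.01 for YOL162W (SE 0.13), with limma's adjusted p-values at 0.000601 and 0.00469. Neither model has a copy or a shared name.

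AAD15 (1551 to 1982), a short aryl-alcohol dehydrogenase model and the outermost one, had 16.7 and 22.2 FPKM in IMX605, 6.66 and 8.56 in IMX606, and 6.17 and 7.15 in IMX372. Its change against IMX606 was 1.24 (SE 0.18, adjusted p = 0.0116). BDS1 (6079 to 8019), a sulfatase, had 92.2 and 100.3 FPKM in IMX605, 46.6 and 71.0 in IMX606, and 61.2 and 59.0 in IMX372. Its change against IMX606 was 0.73 (SE 0.16) and was not called by limma (adjusted p = 0.302), while its change against IMX372 was 0.67 (adjusted p = 0.0106), a call that ended without a filter and without IMX605 R7, DSE001 or DSE002. As ratios of the IMX605 mean to the IMX606 mean, the 4 outer models stood at 2.55 (AAD15), 1.64 (BDS1), 2.12 (YOL163W) and 2.04 (YOL162W).

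The contrast stopped inward of PAU20. YOL159C-A, the next model (15137 to 15409), had 53.7 and 53.2 FPKM in IMX605, 53.9 and 61.4 in IMX606, and 53.5 and 60.8 in IMX372. It and the next 5 models to 30 kb had IMX605 to IMX606 ratios of 0.859 to 1.25. At XIV right the outermost model, YPR202W (761006 to 761356), had 0.142 and 0.292 FPKM in IMX605, 1.06 and 4.67 in IMX606, and 0.768 and 0.447 in IMX372, and its change of -1.49 between the single-locus strains was not called (adjusted p = 0.857 by limma). Without IMX606 R13, which leaves R8 alone for IMX606, its change was -2.22. COS10, just inward of PAU1, had 20.1 and 18.2 FPKM in IMX605, 17.9 and 28.2 in IMX606, and 19.2 and 22.1 in IMX372. From COS10 inward 9 models had ratios of 0.829 to 1.29.

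**Figure D2:**
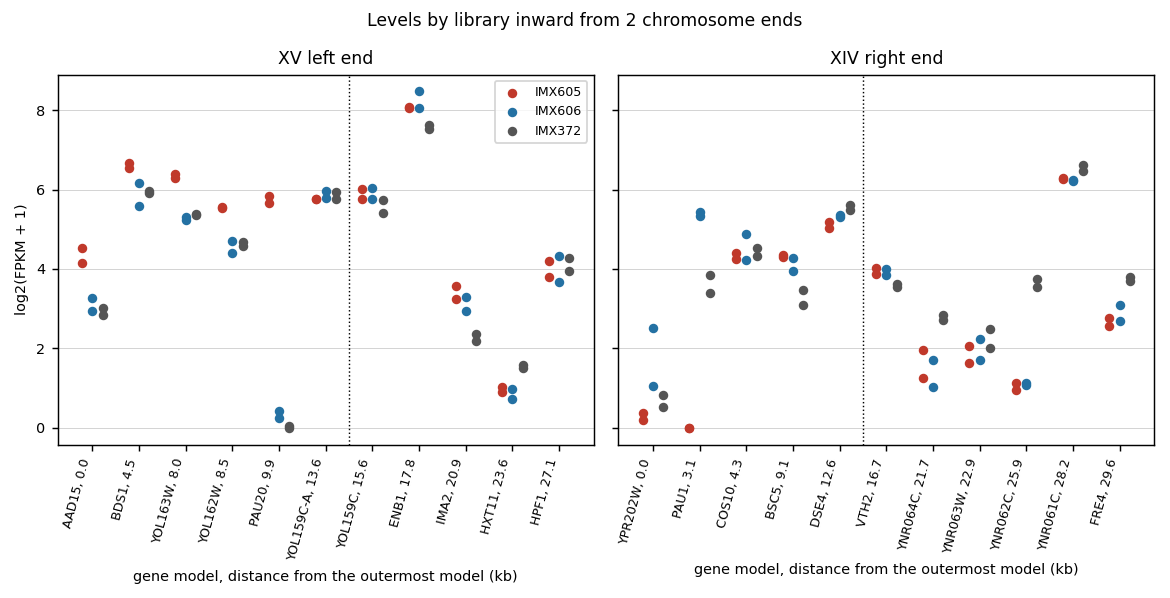
Level of each library, as log2(FPKM + 1), for the gene models from the outermost inward to 30 kb at XV left and XIV right, with the distance of each in kb beside its name and the 15 kb window ending at the dotted line. IMX605 (red) lies above IMX606 (blue) and IMX372 (grey) from AAD15 to PAU20 and level with IMX606 from YOL159C-A on, where IMA2 and ENB1 are higher than in IMX372 in both single-locus strains, and at PAU1 IMX605 is at 0 while IMX606 reaches 42.2 FPKM.

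Compared with IMX372, XV left had 5 of 6 tested members higher in IMX605 and 0 of 6 in IMX606. The shares higher over all genes tested were 15.0% in IMX605 and 11.1% in IMX606. The IMX606 changes of AAD15, BDS1, YOL163W, YOL162W and PAU20 against IMX372 were 0.16, -0.06, -0.10, -0.07 and 0.31, none of them called. The calls of PAU20, PAU1 and YOL163W between the single-locus strains held in every setting tried. Those of AAD15 and YOL162W ended without a filter, in a fit of only these 2 strains and without IMX372 DSE001 or DSE002, and that of AAD15 also with voom and without IMX605 R7.

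Away from these ends, 122 members were tested between IMX605 and IMX606. Limma called 0, with 8 at an unadjusted p under 0.05, and the median absolute log2 change was 0.13. The ends of the chromosomes that carry the relocated locus were among these. Tested members numbered 5 at V left and 3 at V right, with changes of at most 0.27 (V left) and 0.23 (V right) in size, and 3 at IX left and 4 at IX right, with at most 0.41 (IX left) and 0.22 (IX right). With IMX606 R13 left out, IMX606 rests on R8 alone. Among the changes in that fit were 0.66 for YBL113C (V left), -0.81 for IMD2 (I right), -0.88 for COS7 (IV left) and -0.77 for YJR154W (X right). At VII right YPR202W had -1.09 and the unnamed model -1.05.

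Against IMX372 both single-locus strains had more members higher than lower. In IMX605 limma called 61 of the 133 tested members higher and 18 lower, where the calls over all genes tested came to 30.0% (15.0% higher and 15.0% lower). In IMX606 it called 57 higher and 14 lower, where the calls over all genes came to 23.9% (11.1% higher and 12.8% lower). The median log2 change of the tested members was 0.44 in IMX605 and 0.27 in IMX606, and that of all genes was -0.03 in IMX605 and -0.06 in IMX606. The filter shapes these counts, because 27 tested members were under 1 FPKM in IMX372 but reached it in at least 1 single-locus strain. Of those, 24 were called higher in IMX605 and 24 in IMX606. Among the 102 members at 1 FPKM or more in each strain, 37 were higher and 14 lower in IMX605, and 32 were higher and 11 lower in IMX606. The comparisons share the IMX372 libraries. Without DSE002 the counts in IMX606 were 37 higher and 9 lower.

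More of the uncertain members than of the single ones were called higher. Of 68 tested uncertain members 43 were higher and 7 lower in IMX605, and 45 were higher and 5 lower in IMX606, with medians of 1.12 in IMX605 and 1.04 in IMX606. Of 65 tested single members 18 were higher and 11 lower in IMX605, and 12 were higher and 9 lower in IMX606, with medians of 0.11 in IMX605 and 0.04 in IMX606. Among the members at 1 FPKM or more in each strain, 22 of 41 uncertain ones were higher and 4 lower in IMX605, and 23 were higher and 3 lower in IMX606. Of the 61 single ones, 15 were higher and 10 lower in IMX605, and 9 were higher and 8 lower in IMX606. Outside the window 232 tested nuclear genes had the same marks, of which 95 were higher and 45 lower in IMX605, and 86 were higher and 38 lower in IMX606, with medians of 0.16 in IMX605 and 0.15 in IMX606. Of the 97 among them that have a near-identical copy, 59 were higher and 14 lower in IMX605, and 56 were higher and 13 lower in IMX606, with a median of 0.63 in each. Of 5089 single nuclear genes outside it, 662 were higher and 753 lower in IMX605, and 458 were higher and 647 lower in IMX606. How reads on copies were counted in each library set was not given in the sources used here, and its part in these counts was not tested.

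**Figure D3:**
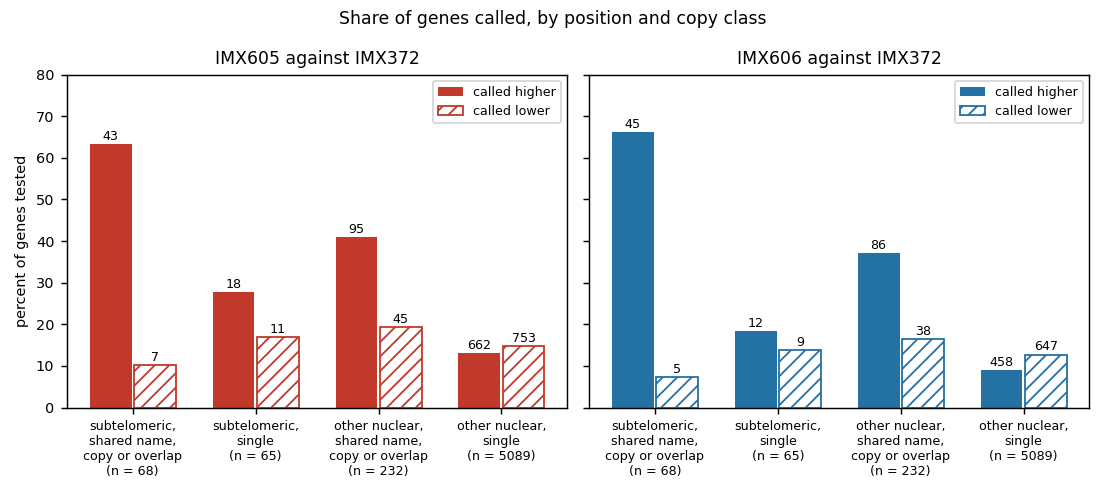
Percent of tested genes called higher (filled bars) and lower (hatched bars) against IMX372 in IMX605 (left panel) and IMX606 (right panel), for members and other nuclear genes with and without a shared name, copy or overlap, with the number of genes above each bar. The bar for higher calls among uncertain members is the tallest in each panel, at 43 and 45 of 68 genes.

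By end the picture was uneven. Every tested member was higher in both single-locus strains at III right, IX left, XII right, XIII right and XV right, and in IMX606 also at VII right. Every tested member was lower in both at I left and XI right. These counts rest on 1 to 6 tested members an end, and in part on the filter. Counts by end, here and below, stand beside the shares over all genes tested. Those were 15.0% higher and 15.0% lower in IMX605, and 11.1% higher and 12.8% lower in IMX606. Under 1 FPKM in IMX372 were both members tested at XIII right, 2 of 3 at IX left, 2 of 3 at XII right, 2 of 3 at VII right, 1 of 2 at III right and 3 of 6 at XV right. At II left none was called in either strain. Members went both ways at 10 ends in IMX605 and 8 in IMX606.

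At XV right 6 of 6 tested members were higher in both strains, 3 of them at 1 FPKM or more in each strain. YOR390W (XV right, model 2), a fluoride exporter by the reference annotation, had 30.8 and 31.0 FPKM in IMX605, 26.2 and 24.1 in IMX606, and 8.11 and 12.6 in IMX372. It rose by 1.52 on the log2 scale in IMX605 and 1.23 in IMX606. HSP33, of the Hsp31-like chaperones and glyoxalases, had 4.11 and 4.96 FPKM in IMX605, 3.73 and 3.21 in IMX606, and 0.338 and 0.367 in IMX372. The single-locus libraries did not overlap with those of IMX372 for either gene. YOR389W rose by 1.59 in IMX605 and 1.53 in IMX606, and the first YOR390W model by 1.00 in IMX605 and 1.43 in IMX606. ERR2 (XV right), an enolase-related gene, rose by 1.47 in IMX605 and 1.29 in IMX606 from levels under 1 FPKM in IMX372. All 6 are uncertain, and 3 members of this end had no read in IMX372.

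At II right 5 of 6 tested members were higher in both strains, with 2 of the 6 under 1 FPKM in IMX372. Of the 4 at 1 FPKM or more in each strain, 3 were higher in both single-locus strains. COS3 had 2 models there, with 70.6 and 77.3 FPKM in IMX605, 53.9 and 61.3 in IMX606, and 28.3 and 33.3 in IMX372 for the inner one. PCA1, a P-type ATPase that exports cadmium and a single gene, had 10.1 and 10.3 FPKM in IMX605, 10.8 and 10.9 in IMX606, and 5.01 and 4.76 in IMX372. Its libraries were close within each strain, and limma gave rises of 0.93 in IMX605 (SE 0.14, adjusted p = 0.000623) and of 1.01 in IMX606 (SE 0.14, adjusted p = 0.000381). MAL31, a maltose permease, rose by 1.26 in IMX605 and 1.49 in IMX606, while MAL33, the activator of the maltose genes, was not called (0.37 in IMX605, 0.36 in IMX606). The MAL12 and MAL32 models at this end had at most 0.216 FPKM in any library.

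IX left gave 3 of 3 tested members higher in both strains. YNR065C (IX left), a sortilin-like gene, had 10.5 and 10.1 FPKM in IMX605, 11.3 and 9.85 in IMX606, and 1.05 and 1.08 in IMX372. VTH2, which resembles the vacuolar sorting receptor Vps10, rose there by 1.14 in IMX605 and 1.54 in IMX606, and its model at X left had 9.58 and 10.04 FPKM in IMX605, 8.13 and 7.12 in IMX606, and 1.33 and 1.15 in IMX372. IMA4 (IX left), an isomaltase, rose by 1.80 in IMX605 and 1.66 in IMX606, and IMA4 (X left) had no read in any library. MAL32 (III right), a maltase, had 6.57 and 9.94 FPKM in IMX605, 8.02 and 9.15 in IMX606, and 0.517 and 0.626 in IMX372, changes of 2.53 in IMX605 and 2.61 in IMX606.

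**Figure D4:**
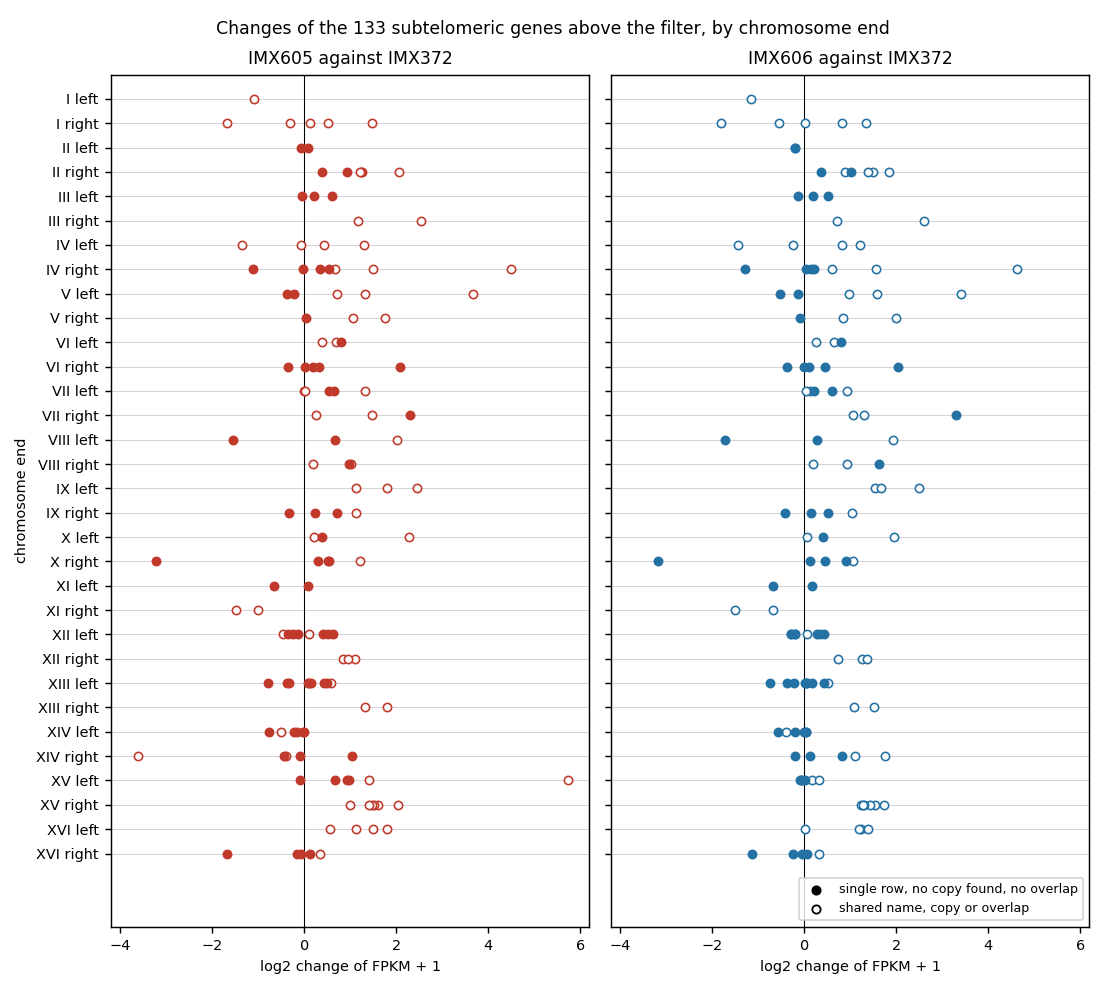
Log2 change of FPKM + 1 against IMX372 for the 133 tested members, in rows by chromosome end, in IMX605 (left panel) and IMX606 (right panel). Open circles mark members with a shared name, copy or overlap and filled circles single members. All points of XV right lie right of 0 in both panels, and the 5 right-hand points of XV left in IMX605, up to 5.73, are near 0 in IMX606.

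XIII left is an end of single, well expressed genes, and its members moved by small steps in both directions. In IMX605 3 of 9 tested members were higher, namely COS7 (0.58), COX14 (0.42) and MSC1 (0.50), and 2 were lower, namely PGA3 (-0.79) and RSC9 (-0.38), a subunit of a chromatin remodeller. In IMX606 COS7 (0.50) and MSC1 (0.42) were higher and PGA3 (-0.75) and ERO1 (-0.37), an oxidase of protein folding, were lower. PGA3 had 217 and 205 FPKM in IMX605, 219 and 214 in IMX606, and 365 in each IMX372 library, so that the 4 single-locus libraries lay below those of IMX372. Of these calls, that of ERO1 (adjusted p = 0.0491 by limma) ended in 12 settings, those of COX14 and RSC9 in 5 each, those of MSC1 in 4 (IMX605) and 5 (IMX606), and those of COS7 in 3 (IMX605) and 4 (IMX606). ERG13, TUB3 and YML131W at this end had changes between 0.02 and 0.15 and were not called. At XIV left RPD3, a histone deacetylase, had 102 and 105 FPKM in IMX605, 107 and 109 in IMX606, and 106 and 103 in IMX372, changes of -0.01 in IMX605 and 0.04 in IMX606. EGT2 had 90.9 and 88.6 FPKM in IMX605, 94.3 and 109 in IMX606, and 152 in each IMX372 library, and it was called lower in both strains (-0.76 in IMX605, -0.58 in IMX606).

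At IV right the gene PAD1, which makes the cofactor for decarboxylation of aromatic acids, was split into 2 models. The first (1489892 to 1490185) had 20.1 and 23.0 FPKM in IMX605, 20.3 and 27.7 in IMX606, and 0 in both IMX372 libraries. That was at least 63.6-fold higher in IMX605 and at least 70.7-fold higher in IMX606, with the floor of 3 reads per library. The second (1490291 to 1490620) had 35.1 and 39.5 FPKM in IMX605, 38.3 and 39.4 in IMX606, and 12.2 and 13.01 in IMX372, changes of 1.49 in IMX605 and 1.55 in IMX606. YDR537C, an opposite-strand model that overlaps PAD1 and was under the filter, had 0.082 and 0.339 FPKM in IMX605, 0 and 0.232 in IMX606, and 3.09 and 2.16 in IMX372. The first PAD1 model lies wholly within YDR537C (1489846 to 1490451). How reads on overlapping models were counted in each library set was not given in the sources used here. Its part in these values was not tested. FDC1, the decarboxylase that uses the cofactor, lies beside PAD1 as a single gene and was not called (0.33 in IMX605, 0.15 in IMX606). IRC4 rose by 0.54 in IMX605 alone, where the difference from IMX606 was not called (0.33). The call of IRC4 in IMX605 ended in 4 settings. STL1, a glycerol transporter, fell by 1.11 in IMX605 and 1.30 in IMX606.

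At VII left YGL262W (0.55) and YPS5 (0.65), of the yapsin proteases, rose in IMX605 with PAU9 (1.32). In IMX606 YPS5 (0.61) and PAU9 (0.92) rose, and YGL262W had 0.22. At VII right an unnamed model (1115341 to 1115520), not searched for copies, had 3.31 and 5.13 FPKM in IMX605, 8.89 and 9.62 in IMX606, and 0.0788 and 0 in IMX372. Its changes against IMX372 were 2.31 in IMX605 and 3.30 in IMX606, and its difference of -0.99 between the single-locus strains was not called (adjusted p = 0.262 by limma). COS6 rose at this end in both strains, and YPR202W (VII right) rose in IMX606 alone (1.05, against 0.26 in IMX605), with a difference of -0.79 that was not called. At XVI left IMD2, an IMP dehydrogenase, rose by 1.13 in IMX605 and 1.22 in IMX606. PAU19 (XVI left) rose to means of 2.21 FPKM in IMX605 and 1.56 FPKM in IMX606, against 0.108 FPKM in IMX372. ERR2 (XVI left) had 3.51 and 3.29 FPKM in IMX605, 2.29 and 2.28 in IMX606, and 0.253 and 0.255 in IMX372, rises of 1.81 in IMX605 and 1.39 in IMX606. At XII right PAU4, YEL074W (0.84 in IMX605, 0.73 in IMX606) and YRF1-4 (0.94 in IMX605, 1.37 in IMX606) rose. At I right the IMD2 model nearer the end rose by 1.47 in IMX605 and 1.33 in IMX606, and the other one rose in IMX606 (0.83, against 0.52 in IMX605). At IV left YJR157W rose by 1.31 in IMX605 and 1.22 in IMX606, and at VI right IRC7, a cysteine lyase by annotation, rose in IMX606 (0.44, against 0.31 in IMX605). At XII left YLL058W (0.52) and YLL056C (0.63) rose and MMP1, an S-methylmethionine permease, fell (-0.47 for 1 of its models) in IMX605. None of these genes was called between the single-locus strains. Several of their calls against IMX372 ended in other settings, those of YEL074W in 4 (IMX605) and 8 (IMX606). In IMX605 that of YPS5 ended in 5, that of YGL262W in 3 and those of MMP1 and YRF1-4 in 2 each. In IMX606 that of the inner IMD2 model at I right ended in 5, that of IRC7 in 3 and that of YPR202W (VII right) in 2. At V left YEL073C, a single gene, fell by 0.38 in IMX605 and 0.53 in IMX606, beside 3 rises (YBL113C, YHL049C and COS7). The calls of YEL073C ended in 5 settings in IMX605 and 2 in IMX606. YHL049C overlaps a YPL283W-A model on the opposite strand, and the part of that overlap in its values was not tested.

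The PAU genes encode small cell wall proteins that are induced by low oxygen and cold. They numbered 15 members at 15 ends, all uncertain, and 7 were under the filter. In IMX605 6 of the 8 tested were higher and 1 lower than in IMX372, and in IMX606 6 were higher and 0 lower. The filter bears on these counts, because 6 of the 8 were under 1 FPKM in IMX372, and the shares called over all genes were 30.0% in IMX605 and 23.9% in IMX606. The family summed to 85.3 and 78.7 FPKM in IMX605, 69.8 and 61.2 in IMX606, and 20.6 and 15.7 in IMX372. PAU20 (XV left) made up most of that sum in IMX605, and PAU1 (XIV right) most of it in IMX606 and IMX372. The 13 other models summed to 28.9 and 29.4 FPKM in IMX605, 27.3 and 21.7 in IMX606, and 7.21 and 6.18 in IMX372.

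PAU24 (II right) had 5.20 and 6.78 FPKM in IMX605, 5.29 and 4.64 in IMX606, and 0.391 and 1.01 in IMX372, changes of 2.06 in IMX605 and 1.83 in IMX606. PAU4 (XII right) had 11.0 and 8.62 FPKM in IMX605, 11.2 and 10.7 in IMX606, and 4.53 and 3.46 in IMX372, changes of 1.11 in IMX605 and 1.26 in IMX606. Neither gene's single-locus libraries overlapped with those of IMX372. PAU22 (IX right, 1.12 in IMX605 and 1.03 in IMX606), PAU9 (VII left) and PAU19 (XVI left) also rose, and PAU9 (IV right) was not called (0.66 in IMX605, 0.60 in IMX606). PAU1 (IX left) had no read in any library, and PAU20 (VIII left) had at most 0.507 FPKM. The other models under the filter, PAU9 (II left and III right), PAU16 and PAU19 (XIII right and XV right), lay between 0 and 2.33 FPKM. The calls of PAU22 and PAU9 (VII left) ended in several settings, which included each IMX372 library left out, and that of PAU19 (XVI left) in IMX606 ended with either of those libraries left out.

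The COS proteins act in sorting of membrane proteins into endosomes for breakdown. The shares called higher over all genes were 15.0% in IMX605 and 11.1% in IMX606. The COS genes had 12 members, 10 of them uncertain and all at 1 FPKM or more in each strain. Of these members 6 were higher in IMX605 and 7 higher in IMX606, with 0 lower in either. The sum was 537 and 576 FPKM in IMX605, 467 and 604 in IMX606, and 287 and 363 in IMX372. COS6 (VII right, 1107818 to 1108963) had 155 and 158 FPKM in IMX605, 128 and 148 in IMX606, and 50.2 and 62.4 in IMX372, with no overlap between the IMX372 libraries and the rest. Limma gave rises of 1.47 in IMX605 (SE 0.13, adjusted p = 7.64e-06) and of 1.29 in IMX606 (SE 0.13, adjusted p = 2.44e-05). Its second model (III right) rose by 1.17 in IMX605 and 0.71 in IMX606, from 4.37 and 6.03 FPKM in the IMX372 libraries. The inner COS3 model rose by 1.24 in IMX605 and 0.88 in IMX606, and the outer one by 1.22 in IMX605 and 1.39 in IMX606. COS7 rose at V left (0.72 in IMX605, 0.96 in IMX606) and XIII left in both strains, and at IV left in IMX606 (0.81, against 0.44 in IMX605, a difference that was not called). The single models COS8 (-0.32 in IMX605, -0.42 in IMX606) and COS10 (-0.10 in IMX605, 0.12 in IMX606) were not called, and neither were COS4 and the COS12 models. Without DSE001 the calls of COS6 (III right) and COS7 (XIII left) ended in both strains, those of COS7 ended at V left in IMX605 and at IV left in IMX606, and other settings also ended some of them.

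The AAD genes encode putative aryl-alcohol dehydrogenases, and some respond to oxidative stress. Among all genes tested 15.0% were higher in IMX605 and 11.1% in IMX606. Of the 4 AAD members, 3 of them uncertain, 3 were higher in IMX605 and 2 in IMX606. Their sums were 121 and 132 FPKM in IMX605, 109 and 113 in IMX606, and 69.7 and 69.1 in IMX372. AAD14 (X right) had 43.8 and 48.3 FPKM in IMX605, 41.3 and 42.2 in IMX606, and 21.1 and 17.8 in IMX372, changes of 1.20 in IMX605 and 1.07 in IMX606. AAD16 (VI left), the model of the family with no mark, though not searched for copies, had 40.6 in each IMX605 library, 42.3 and 38.7 FPKM in IMX606, and 22.3 and 23.3 in IMX372, and rose by 0.81 in IMX605 and 0.80 in IMX606, with limma's adjusted p-values at 0.000294 and 0.00036. The single-locus libraries did not overlap with IMX372 for either. AAD14 (XIV left) was level, at 19.5 and 20.6 FPKM in IMX605, 18.9 and 23.0 in IMX606, and 20.1 and 20.8 in IMX372. AAD15 is the member that differed between the single-locus strains.

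**Figure D5:**
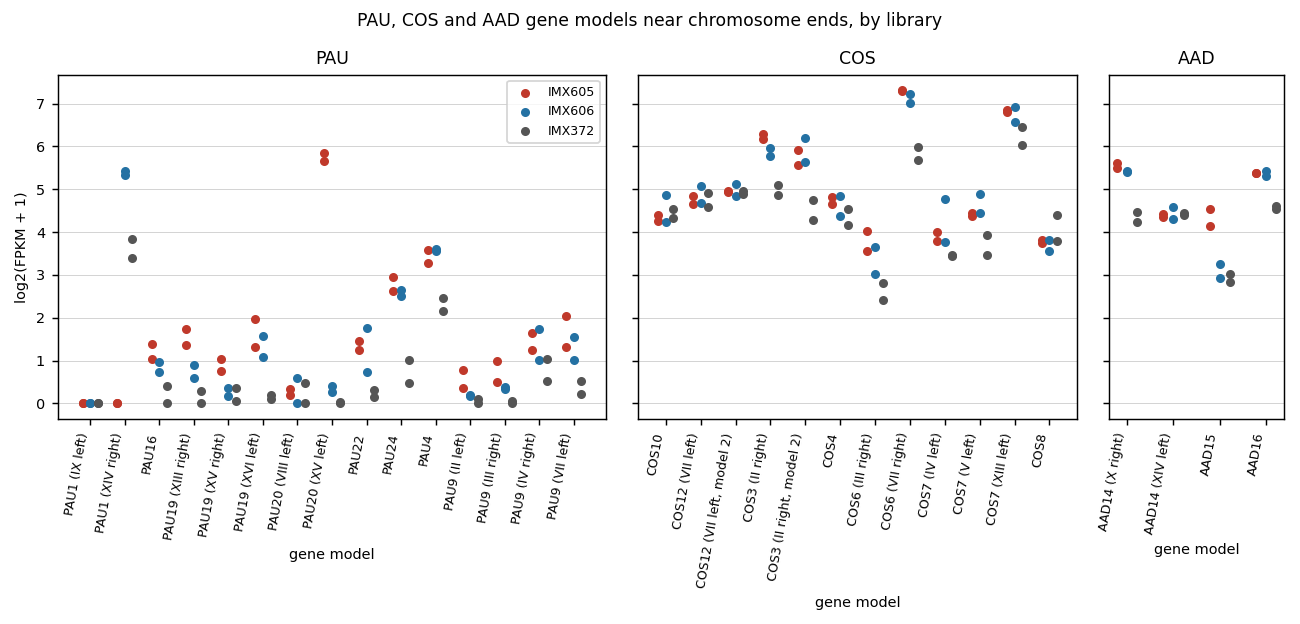
Level of each library, as log2(FPKM + 1), for the 15 PAU, 12 COS and 4 AAD members, with IMX605 in red, IMX606 in blue and IMX372 in grey. PAU1 (XIV right) and PAU20 (XV left) carry most of the PAU signal in different strains, COS6 (VII right) is the highest COS model in the single-locus strains, and AAD15 is the AAD model where IMX605 stands apart.

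Models of the Y′ element, the repeat next to many telomeres that encodes a helicase-like protein, formed another group with models similar to that helicase, defined after their values were seen from the names in the table and the reference annotation. It held 31 members at 15 ends, each of them uncertain, with 24 under the filter. No read fell on 10 of them in IMX372, on 10 in IMX605 and on 9 in IMX606. Of the 7 tested, 5 were under 1 FPKM in IMX372. In IMX605 5 of the 7 were higher and 0 lower, and in IMX606 6 were higher and 0 lower, where 15.0% and 11.1% of all genes tested were higher. Only 2 of the 7 were at 1 FPKM or more in each strain, and both were higher in each single-locus strain. YBL113C (V left) had 85.2 and 80.6 FPKM in IMX605, 89.4 and 52.2 in IMX606, and 5.77 and 5.38 in IMX372, and rose by 3.67 in IMX605 and 3.40 in IMX606, with an SE of 0.19 and limma's adjusted p-values at 1.28e-07 and 3.01e-07. That model held much of the group's signal in the single-locus strains. The other 30 summed to 34.99 and 34.2 FPKM in IMX605, 43.5 and 37.3 in IMX606, and 8.12 and 6.54 in IMX372. YJL225C (VIII left) rose by 2.01 in IMX605 and 1.93 in IMX606. YHR219W (V right), with no read in IMX372, was at least 8.87-fold higher in IMX605 and at least 11.1-fold higher in IMX606. Both overlap a YPL283W-A model on the opposite strand, and the part of that overlap in their values was not tested.

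Other members with no read in either IMX372 library and a mean of 1 FPKM or more in another strain lay close to the ends too. YPL283W-A (XV right), which was tested, had means of 1.67 FPKM in IMX605 and 1.44 FPKM in IMX606. That was at least 71.5-fold higher in IMX605 and at least 61.6-fold higher in IMX606. Models of that name at III right, V left, V right and VIII left overlap another model. Whether overlap bears on the value at XV right was not tested. YBL113C (XI left), YRF1-4 (XI right), YRF1-6 (XV right) and YPR202W (XVI right) were under the filter, with means of 0.974 to 1.51 FPKM in the single-locus strains. MATALPHA2 (III left), a model at the silent mating-type cassette, had 0.157 and 1.05 FPKM in IMX605, 1.52 and 0.739 in IMX606, and 0 in both IMX372 libraries, at least 7.15-fold higher in IMX606, and MATALPHA1 beside it had no read in any library.

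Single members in the reference rest least on the sorting of copies. Over all genes tested 15.0% were higher and 15.0% lower in IMX605, and 11.1% were higher and 12.8% lower in IMX606. Of the 61 such members tested, 15 were higher and 11 lower in IMX605, and 9 were higher and 9 lower in IMX606. HXK1 (VI right), the hexokinase isoform made when glucose is scarce, had 4.396 and 4.75 FPKM in IMX605, 6.14 and 3.18 in IMX606, and 0.292 and 0.359 in IMX372, and rose by 2.07 in IMX605 and 2.04 in IMX606, with limma's adjusted p-values at 0.000117 and 0.000144. It was the 1 of these 61 members under 1 FPKM in IMX372, and its opposite-strand neighbour stood at 10 times its level or more. Whether the reads came from HXK1 itself was not tested. BSC5 (XIV right) rose by 1.05 in IMX605 and 0.83 in IMX606. YHR212C (VIII right), not searched for copies, rose by 0.97 in IMX605 and 1.63 in IMX606. The yapsin gene YPS6 (IX right) rose by 0.72 in IMX605 and 0.50 in IMX606, and the serine deaminase gene CHA1 (III left) rose in IMX605 (0.60) and was not called in IMX606 (0.51).

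PGU1 (X right, 717841 to 718926), the secreted polygalacturonase, had the largest fall among single members. It had 0.183 and 0.378 FPKM in IMX605, 0.295 and 0.345 in IMX606, and 11.1 and 10.9 in IMX372, and fell by 3.23 in IMX605 and 3.18 in IMX606 on the log2 scale, with an SE of 0.21 and limma's adjusted p-values at 9.34e-07 and 1.18e-06. Its neighbours did not fall with it, since DAL5 (allantoate permease) changed by 0.30 in IMX605 and 0.12 in IMX606 without a call, and YJR154W by 0.51 in IMX605, not called, and 0.91 in IMX606, called higher. At XVI right ARR3, the arsenite exporter, had 1.27 and 1.39 FPKM in IMX605, 2.11 and 2.70 in IMX606, and 6.70 and 6.33 in IMX372, changes of -1.69 in IMX605 and -1.15 in IMX606. The other genes of the arsenic cluster, the activator gene ARR1 (-0.15 in IMX605, -0.24 in IMX606) and the arsenate reductase gene ARR2 (0.12 in IMX605, 0.05 in IMX606), were not called.

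ECM34 (VIII left) fell to 6.19 and 6.56 FPKM in IMX605 and 5.15 and 5.95 in IMX606, against 17.8 and 23.5 in IMX372. DSE4, a glucanase of daughter cell separation (XIV right), fell in IMX605 (-0.45) and was not called in IMX606 (-0.21), and RPN12 fell by 0.36 in IMX605 and 0.37 in IMX606. Among uncertain members, MPH2, an alpha-glucoside permease (IV left), fell to 3.61 and 3.53 FPKM in IMX605 and 3.15 and 3.35 in IMX606, against 10.1 and 11.2 in IMX372. The flocculin gene FLO9 (I left) fell by 1.10 in IMX605 and 1.15 in IMX606, and its relative FLO5 (VIII right) rose by 1.02 in IMX605 and 0.92 in IMX606, while FLO1 (I right) was not called (0.12 in IMX605, 0.01 in IMX606). At XI right VBA5, a transporter of basic amino acids by similarity, fell by 1.48 in IMX605 and 1.52 in IMX606, and GEX2, a glutathione exchanger, by 1.00 in IMX605 and 0.69 in IMX606. YHR214C-D (I right) fell by 1.68 in IMX605 and 1.81 in IMX606.

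Genes for proteins that act on chromosome ends were counted beside the members. Of 41 tested genes for telomere proteins and silencing, of which RPD3 is itself a member, 4 rose and 5 fell in IMX605, and 1 rose and 2 fell in IMX606, shares of 22.0% and 7.32% against 30.0% and 23.9% over all genes. SIR2, the histone deacetylase of the Sir complex, averaged 21.9 FPKM in IMX605 and 19.2 FPKM in IMX606, against 29.7 FPKM in IMX372, and fell by 0.42 in IMX605 and 0.60 in IMX606. TBF1, which binds subtelomeric DNA, rose by 0.44 in IMX605 and 0.43 in IMX606. RIF1 (0.44), TEN1 (0.35) and TUP1 (0.56) rose and RIF2 (-0.58), RAP1 (-0.36), ABF1 (-0.32) and HST4 (-0.45) fell in IMX605, and SAS4 (-0.36) fell in IMX606. RAP1 encodes the protein that binds the telomere repeats. Between IMX605 and IMX606 limma called 0 of the 41, with 1 at an unadjusted p under 0.05.

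Of 17 tested regulators and relatives of the PAU genes, 2 rose and 2 fell in IMX605, and 1 rose and 2 fell in IMX606, shares of 23.5% in IMX605 and 17.6% in IMX606 where all genes had 30.0% and 23.9%. ROX1, the repressor of hypoxic genes, rose by 0.54 in IMX605 and 0.42 in IMX606, and TUP1 is also in this list. TIR2, a cell wall gene related to PAU, fell by 0.92 in IMX605 and 1.01 in IMX606, and HEM13, a heme synthesis gene induced by low oxygen, by 0.49 in IMX605 and 0.39 in IMX606. Of 16 tested genes of the Yap1 and drug response, 2 rose in each strain and 0 fell (12.5%), namely the oxidoreductase gene OYE3 (1.31 in IMX605, 0.79 in IMX606) and the transporter gene FLR1 (0.37 in IMX605, 0.42 in IMX606).

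Lists of gene functions common at chromosome ends held few names with a single row, and their counts stand beside 30.0% called over all genes in IMX605 and 23.9% in IMX606. Of 7 disaccharide and sugar alcohol genes 2 rose (MAL11 and IMA2) and 1 fell (MPH2) in each strain. Of 5 cell surface genes 1 rose (FLO5) and 1 fell (FLO9) in each. Of 11 transport and vitamin genes 3 rose and 2 fell in IMX605, and 2 rose and 3 fell in IMX606, with SFC1 and TPO2 higher and SUL1 and GEX2 lower in both. Of 3 enolase-related and alcohol dehydrogenase genes ERR3 rose and ADH4 fell in each strain. Of 14 tested helicase, COS and DUP gene models 7 rose in IMX605 and 8 in IMX606, and 0 fell. All are members counted above, and 12 of them are the COS models. In none of these lists was a gene called between IMX605 and IMX606.

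Just inside the 15 kb limit lay DAN4 (14984 bases), YPR196W (14954), PCA1 (14936), FLO5 (14919) and YOR389W (14830), with changes of 0.35 to 1.59 in IMX605 and 0.31 to 1.53 in IMX606. Just outside it lay MAL31 (III right, 15059 bases), with no read, YKR104W (15095), AAD6 (15118), PKC1 (15157) and HSP32 (15161), with changes of -0.17 to 2.45 in IMX605 and 0.17 to 2.15 in IMX606.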

How the data were processed

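The values used were FPKM as deposited by the authors, 1 table of 5625 gene models and 6 libraries. Libraries were stranded mRNA, per the labels' protocols, and STAR 2.5.4a, featureCounts, SAMtools, DESeq2 and edgeR appear in the submitters' processing notes with no role or order. Whole reads were recovered from the FPKM steps for 100% of values (tolerance 0.01). Library totals are in the report.

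Log2(FPKM + 1) of the 5459 models with a mean of at least 1 FPKM was fitted with limma 3.58.1 (R 4.3.3), 1 mean per strain with an intensity trend (residual degrees of freedom 3, prior 8.38), and checked on simulated data. P-values were adjusted over all models tested. Copies were found with BLAST 2.17.0 in the reference genome, an S288C assembly used for names and copies alone, which held 175 of the 198 members. Tables and figures used Python 3.11.15, pandas 2.3.3, numpy 2.4.6 and matplotlib 3.10.9.

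Members and gene lists were chosen with earlier results of these data known. Genes named are the 10 largest called rises and falls of each comparison, family members, the 10 highest, members called between IMX605 and IMX606, members with 0 reads in 1 strain, calls at ends with 3 or more, and called telomere or PAU regulators; others were chosen after their values were seen. Alternatives tried were a filter at 5 FPKM or none, pseudocounts of 0.1 and 5, median-of-ratios factors, quantile normalization, 2-strain fits, no trend, voom on the recovered reads, each library left out, windows of 10000 and 20000 bases, and members without shared names or copies.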

Additional observations from a re-analysis of the deposited data

Results flagged for a closer look

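Members that differed between IMX605 and IMX606 under limma's test of that difference, while both strains were also compared with IMX372, were PAU20 (XV left), with a log2 change of 5.41, PAU1 (XIV right), with -5.38, AAD15, with 1.24, YOL163W, with 1.06, and YOL162W, with 1.01. PAU20, AAD15, YOL163W and YOL162W lie side by side with BDS1 within 10 kb of 1 end, and each IMX605 library was above each IMX606 library for all of them. No group had more than 2 libraries, so no library could be tested as standing apart within a strain.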

How the results depend on the processing

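No paired analysis was possible because the table's columns carry no replicate numbers. Against IMX372, IMX605 had 38 members higher and 10 lower at a mean of at least 5 FPKM, 36 and 9 in a window of 10000 bases, and 18 and 11 without shared names or copies. IMX606 had 33 higher and 6 lower at that mean, 33 and 7 in the smaller window, 22 lower in a window of 20000 bases, and 12 and 9 without shared names or copies. Between IMX605 and IMX606, 2 were higher without a filter and in a fit of only these strains, and 2 higher and 0 lower without shared names or copies. Leaving out overlaps as well, chosen after seeing the data, gave the same counts: 18 and 11, 12 and 9, and 2 and 0. Voom on the recovered reads called 62 higher and 17 lower in IMX605 and 55 and 13 in IMX606 against IMX372, and 3 and 1 between IMX605 and IMX606. With 1 library left out, counts ranged from 45 to 70 higher and 12 to 21 lower in IMX605 against IMX372, 37 to 58 and 9 to 17 in IMX606 against IMX372, and 2 to 5 and 1 to 7 between IMX605 and IMX606. A strain left with 1 library was assumed to vary like the others. Smaller windows and stricter filters test fewer members; for the other settings the cause was not tested. Of 129 named changes 85 held in every setting (42 of 64 in IMX605, 40 of 60 in IMX606 and 3 of 5 between them), and 0 reversed. With 3 reads as the floor, levels under about 0.160 FPKM per kb could not be told from 0.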

Other observations

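The table also holds 32 gene models on 2 unplaced sequences with telomere genes, which belong to no chromosome end and were left out of the members. One of them was above the filter. A PAU1 model there had 1.10 and 1.98 FPKM in IMX605, 1.47 and 1.16 in IMX606, and 0.04 and 0.14 in IMX372, and it was under the filter.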
